A study of Homo sapiens with 8 samples.

Results

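Coding loci at which the transcripts of the locus took different shares of its abundance in normoxia and in hypoxia were examined in SQ20B cells, an established human line grown from a laryngeal squamous carcinoma. Members were chosen by the deposited values themselves. A locus string of the table was eligible when it listed 2 or more coding (NM) transcripts and no noncoding (NR) transcript and when its summed FPKM was at least 2 in both conditions, and it was selected on a difference of at least 10 percentage points in the share of any of its transcripts. FPKM is an abundance in which the sequenced fragments of a transcript are divided by its length and by the size of the sequencing run. A share is the FPKM of a transcript as a percentage of the sum over its locus. The rule gave 374 members among 3436 eligible loci (10.9%), out of 12882 locus strings in all. The share differences below are therefore the values that chose the members, and they are given as a description without a test.

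Polyadenylated RNA had been sequenced from 4 replicates kept in normoxia and 4 replicates kept at 0.5% O2 for 16 h, all from 1 cell line for which the labels give no genetic change. The table used here lists 1 FPKM value per transcript and condition, estimated over the 4 replicates together. With 1 value per condition and no counts, no replicate spread, interval or p-value can be given, and a transcript with a low FPKM carries an error of unknown size. "Higher" and "lower" below compare these 2 values only. Of 8 squamous epithelial markers 7 were listed, with a summed FPKM from 5.10 (KRT6A) to 398 (KRT5) in normoxia and from 3.26 to 442 in hypoxia, and the basal keratin KRT14 was not listed. KRT5, KRT17, TP63 and CDH1 were higher and KRT6A, DSG3 and EPCAM lower in hypoxia. Of 8 leukocyte, fibroblast and endothelial markers, the macrophage gene CD68 had 2.36 and 2.86 FPKM and COL3A1 had 0.0489 and 0.107. The other 6, PTPRC, CD3E, COL1A1, COL1A2, PECAM1 and VWF, were not listed.

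The name "isoform shares" held for only some of the members. A locus string spans a bundle of overlapping or adjoining transcripts, and it can hold more than 1 gene. At 282 members the paired transcripts gave a single gene symbol, which was 9.89% of 2852 such eligible loci. All transcripts were paired at 272 of them, and at the other 10 some had no symbol. At the other 92 members, 15.9% of 580 such loci, several genes shared the string, and there a share can move because one gene is more or less abundant relative to its neighbour. The transcript with the largest gain and the one with the largest loss belonged to the same gene at 13 of these 92 loci. This was not counted over the 580, so it is not known whether the members differ in it. Both kinds were kept, as the rule requires, and they are described separately.

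Transcripts of one gene can begin at alternative promoters, include or skip exons, and end at alternative polyadenylation sites, so they can differ in the encoded protein, in untranslated sequence, or in both. Cells that lack oxygen stabilise the hypoxia-inducible factors HIF-1 and HIF-2, transcription factors that bind short sequences with the core ACGTG or GCGTG and induce genes of glycolysis, glucose storage and oxygen supply. A gene can carry such a site at one of its promoters and not at another. In that case a single start site can respond and the makeup of the transcripts can shift.

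MXI1, a repressor that competes with MYC for its partner MAX, shows how the transcripts of a member differ. The study's primers are shown because each one reads across the junction between a different first exon and the same second exon. The lower-case bases lie in the first exon and the capitals in the shared second exon (chr10:111987947-111988079, GRCh37, plus strand).
NM_130439: gaaaacaaaaAGTCTGAACATG
NM_001008541: ctaagtcaacttcatAGTGT
NM_005962: gggagcgagAGTGTGAACAT
By sequence match to GENCODE transcripts, the first exons lay at chr10:111967363-111967840, chr10:111969989-111970073 and chr10:111985751-111986041. The primer for NM_130439 differed from its GENCODE transcript by C14G, counted from 1 at the 5′ end of the primer with the base of the primer first, and the other 2 primers matched without a difference. The 3 transcripts thus start at 3 places in the gene.

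The 120 bases just before each of these first exons are shown with the HIF core motif, ACGTG or GCGTG on either strand, in capitals. They lie at chr10:111967243-111967362, chr10:111969869-111969988 and chr10:111985631-111985750 (GRCh37, plus strand).
NM_130439: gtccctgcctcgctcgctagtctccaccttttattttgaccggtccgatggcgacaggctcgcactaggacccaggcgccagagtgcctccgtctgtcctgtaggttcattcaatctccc
NM_001008541: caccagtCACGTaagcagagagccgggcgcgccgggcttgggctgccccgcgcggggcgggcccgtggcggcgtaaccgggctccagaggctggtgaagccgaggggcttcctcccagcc
NM_005962: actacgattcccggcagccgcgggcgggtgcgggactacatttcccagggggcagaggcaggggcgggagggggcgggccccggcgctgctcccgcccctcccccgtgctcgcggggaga
One motif was found, an ACGTG core on the minus strand before the first exon of NM_001008541, and the windows before the other 2 first exons held none. The CG dinucleotide occurred 8, 14 and 14 times in the 3 windows. A match is a description of letters and not a bound site, and a window without a match says nothing of sites elsewhere.

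RefSeq promoters of 8 further named members are shown to set a gene's start beside the shifts described below, and they were picked by hand. They are the 150 bases before 1 annotated start per gene (GRCh38.p14), with the same motifs in capitals. On the plus strand lie PDK3 (chrX:24465136-24465285), UGP2 (chr2:63840819-63840968), TNFAIP8 (chr5:119268609-119268758), JDP2 (chr14:75427574-75427723) and MXD1 (chr2:69914959-69915108). On the minus strand lie SESN1 (chr6:109094847-109094996), NCOA4 (chr10:46030624-46030773) and CTBP2 (chr10:125161031-125161180).
PDK3: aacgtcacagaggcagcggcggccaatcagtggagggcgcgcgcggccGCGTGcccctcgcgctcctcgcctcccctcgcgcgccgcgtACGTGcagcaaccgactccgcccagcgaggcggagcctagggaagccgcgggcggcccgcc
UGP2: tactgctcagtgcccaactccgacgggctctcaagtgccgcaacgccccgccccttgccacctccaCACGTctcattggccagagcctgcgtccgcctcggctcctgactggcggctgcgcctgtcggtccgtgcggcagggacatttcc
TNFAIP8: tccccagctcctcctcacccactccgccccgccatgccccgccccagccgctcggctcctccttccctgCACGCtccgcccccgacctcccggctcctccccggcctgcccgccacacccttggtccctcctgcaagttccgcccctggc
JDP2: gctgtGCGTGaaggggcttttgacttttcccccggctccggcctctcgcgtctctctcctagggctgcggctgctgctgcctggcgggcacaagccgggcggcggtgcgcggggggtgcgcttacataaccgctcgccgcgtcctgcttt
SESN1: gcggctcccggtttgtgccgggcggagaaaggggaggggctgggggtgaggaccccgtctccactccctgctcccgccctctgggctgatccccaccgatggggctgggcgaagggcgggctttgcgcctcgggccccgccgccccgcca
MXD1: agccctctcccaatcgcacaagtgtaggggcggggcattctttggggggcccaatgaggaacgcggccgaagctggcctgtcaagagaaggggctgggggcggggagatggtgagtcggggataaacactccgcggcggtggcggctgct
NCOA4: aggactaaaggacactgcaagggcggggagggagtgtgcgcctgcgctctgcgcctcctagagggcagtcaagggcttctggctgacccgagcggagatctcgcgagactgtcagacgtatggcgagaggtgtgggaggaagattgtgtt
CTBP2: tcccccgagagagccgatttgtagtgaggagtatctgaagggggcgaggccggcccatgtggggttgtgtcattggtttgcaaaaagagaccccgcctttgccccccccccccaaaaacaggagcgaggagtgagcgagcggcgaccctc
PDK3 held 2 motifs, UGP2, TNFAIP8 and JDP2 held 1 each, and the other 4 held none. Which of a gene's transcripts uses the annotated start was not tested. Across the members of 1 gene, 234 of 282 had a RefSeq promoter, and 119 of them (50.9%) held ACGTG or GCGTG on either strand in the 250 bases before the start. The share was 59.0% of 2176 other eligible loci of 1 gene and 43.1% of all 27305 RefSeq promoters. ACGTG alone was in 20.5% of the members' promoters, 24.3% of those of the other eligible loci and 18.7% of all. The motifs were therefore not more frequent in the members than in the loci with smaller share differences.

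The largest share difference of a member had a median of 13.2 points, with quartiles of 11.5 and 17.1, and 129 members reached 15 points, 54 reached 20 and 9 reached 30. The highest was 44.6 points, at PTK2B. Just inside the limit lay ZNF2 with 10.04 points, MECOM with 10.01 and RBMS3 with 10.004, and just outside lay DBNL with 9.988 and the locus of ACIN1 and C14orf119 with 9.974. The limit therefore cuts through a continuous range.

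Members were more often loci of low abundance and loci with many transcripts. Of the 1-gene loci with a mean summed FPKM below 5, 23.1% were members, against 11.7% from 5 to 10, 8.93% from 10 to 20, 5.61% from 20 to 50 and 3.87% at 50 or more. The share was 6.70% of loci with 2 listed transcripts, 11.6% with 3, 17.1% with 4 and 17.7% with 5 or more. The median mean summed FPKM was 7.28 for the members of 1 gene and 17.8 for the other eligible loci of 1 gene. The loci of several genes had a higher share of members in every one of these classes. The part that low abundance and the division of fragments among similar transcripts played in the share differences was not tested. At 165 of the 282 members of 1 gene, both the gaining and the losing transcript had at least 1 FPKM in both conditions, and at 22 one of them was below 0.1 FPKM in a condition. Over all 2852 eligible loci of 1 gene these counts were 1570 and 233, so the members did not stand apart in this.

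**Figure D1:**
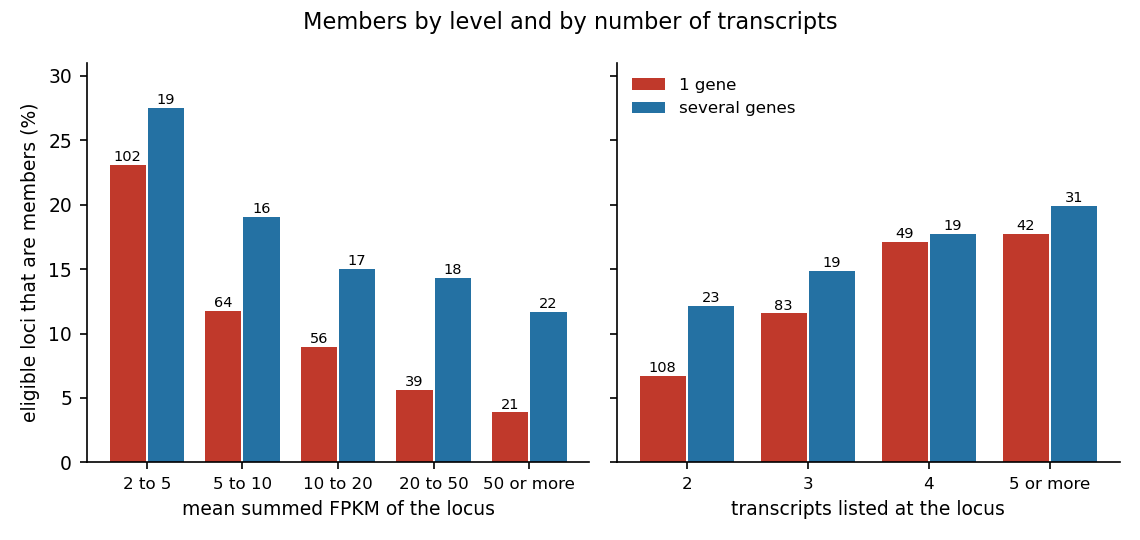
Percentage of eligible loci that were members, by mean summed FPKM of the locus (left) and by the number of transcripts listed (right), for loci of 1 gene (red) and of several genes (blue), with the number of members above each bar. The percentage for 1-gene loci goes from 23.1% below 5 FPKM to 3.87% at 50 FPKM or more, and from 6.70% with 2 transcripts to 17.7% with 5 or more.

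**Figure D2:**
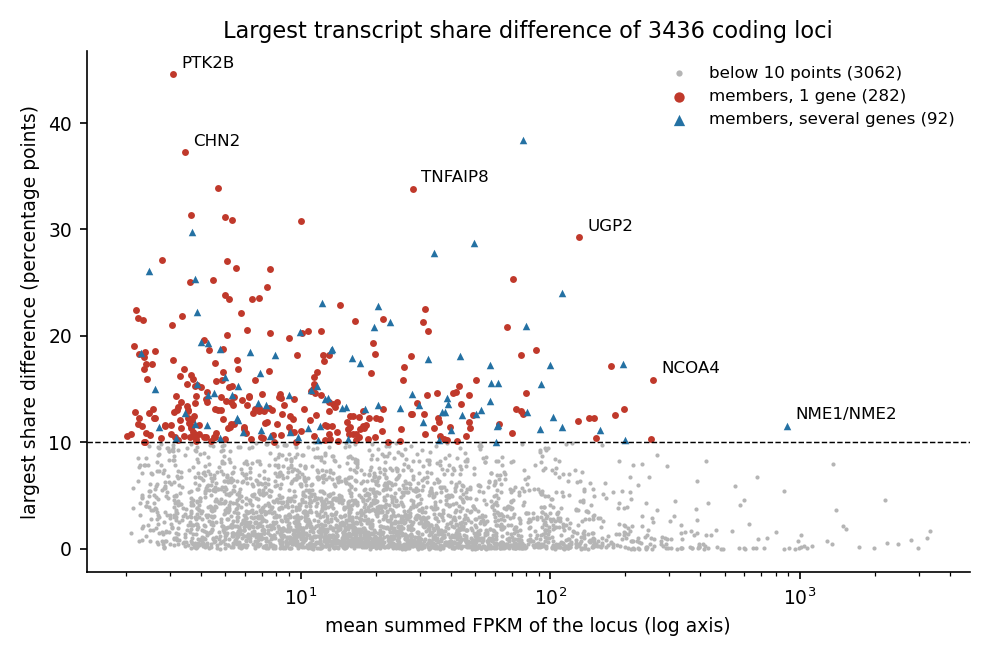
Largest share difference of each eligible locus in percentage points against its mean summed FPKM on a log axis, with loci below the limit of 10 points in grey, members of 1 gene in red and members of several genes as blue triangles. The dashed line is the limit, and the largest differences lie at low FPKM, with UGP2 as an example above 100 FPKM.

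The same share difference can come from different movements of the 2 transcripts. Changes are log2((hypoxia FPKM + 0.1)/(normoxia FPKM + 0.1)), which understates the change of low transcripts, and 1.5-fold is the size used for a call. Among the 282 members of 1 gene, the losing transcript alone was lower by 1.5-fold at 92 (32.6%, beside 20.5% of all eligible loci of 1 gene) and the gaining transcript alone was higher at 85 (30.1%, beside 14.2%). At 61 neither passed 1.5-fold (21.6%, beside 55.2%). The gaining transcript was higher and the losing one lower at 36 (12.8%, beside 2.52%). The choice of the members favours these differences from the background, so nothing is read from them. Both were higher at 5 loci (1.77%, beside 3.51%), namely NDRG1, MXI1, RNF24, YPEL5 and SAMD4A. Both were lower at 3 (1.06%, beside 4.03%), namely TROAP, RPUSD2 and DFFA.

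The summed FPKM differed by less than 1.2-fold at 129 of the 282 members of 1 gene (45.7%) and at 47.3% of all eligible loci of 1 gene, so the members did not stand apart in this. It was at least 1.5-fold higher in hypoxia at 33 (11.7%) and lower at 18 (6.38%), while over all eligible loci of 1 gene these shares were 8.1% and 8.59%. The median log2 change of the sum was 0.01 over the members of 1 gene and -0.08 over all eligible loci of 1 gene. Over all 374 members, 41 were higher and 33 lower, with a background of 7.39% and 9.23% of all eligible loci. The FPKM columns themselves summed to 536005 in normoxia and 458431 in hypoxia, and with the columns scaled to equal sums the counts were 78 higher and 15 lower. The shares within a locus do not depend on this scaling.

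The most abundant transcript was a different one in hypoxia at 71 of the 282 members of 1 gene (25.2%), against 4.77% of all eligible loci of 1 gene, and at 100 of all 374 members, against 5.44% of all eligible loci. The rule favours this too. Of the 100, 1 remained where the leader of each condition had to hold at least 60% of the sum there. A locus fails this when the leader of either condition is below 60%, so the count does not tell how similar the shares were. At TNPO2, for example, NM_001136195 held 74.9% in normoxia and 43.5% in hypoxia, and NM_013433 held 17.1% and 48.3%. The summed FPKM differed by less than 1.2-fold at 34 of the 71 and at 67 of the 136 eligible loci of 1 gene with another leader. At 148 of the 282 members (52.5%) the leading transcript of normoxia was the one that lost most share, and at 101 (35.8%) it was the one that gained most. At the other eligible loci of 1 gene these shares were 41.7% and 49.6%. The direction depended on the condition that named the leader. The leading transcript of hypoxia gained most at 170 of the 282 members and lost most at 90. The leading transcript had a median share of 60.5% in normoxia at members, against 83.8% at the other eligible loci of 1 gene. Leaders, moved transcripts and members were all picked from the same FPKM values. These contrasts are therefore not independent of the rule, and nothing is read from them.

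**Figure D3:**
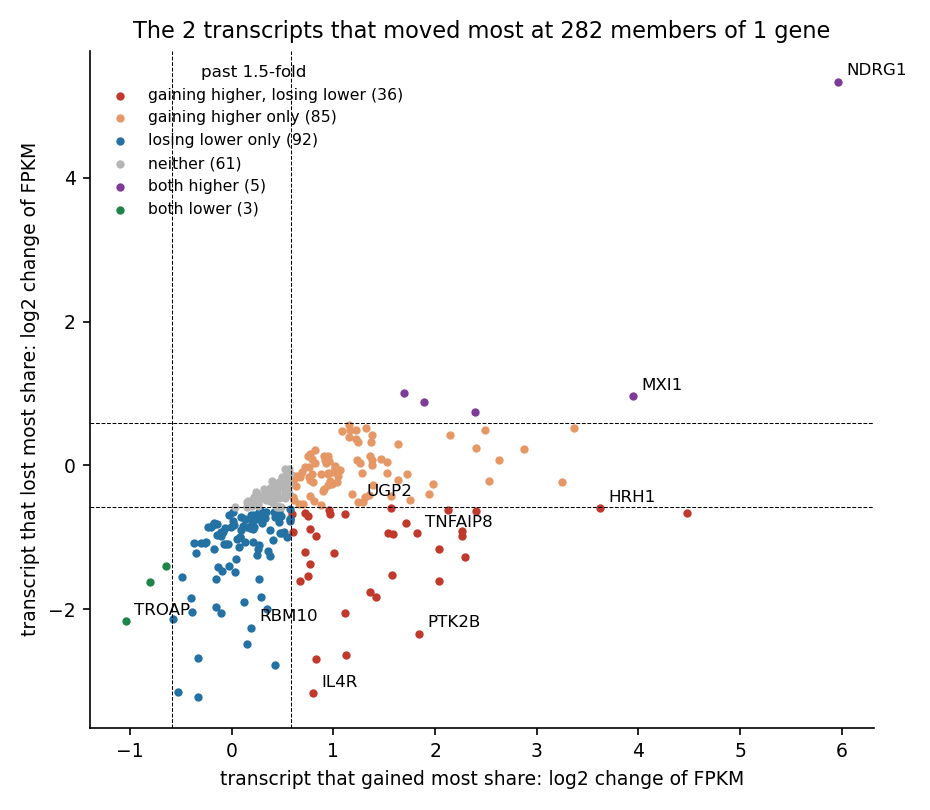
Log2 change of FPKM between normoxia and hypoxia for the transcript that gained most share (horizontal axis) and the one that lost most (vertical axis) at the 282 members of 1 gene. Dashed lines mark 1.5-fold, colours give the 6 classes with their counts, and NDRG1 and MXI1 lie at the right with both transcripts higher.

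Of 20 eligible 1-gene loci in a list of hypoxia genes, 4 were members (20%, beside 9.89% of all 1-gene loci). They were ALDOA, MXI1, NDRG1 and PDK3, and the sum was at least 1.5-fold higher at all 4 (beside 8.1% of eligible 1-gene loci). The median log2 change of the sum was 1.46 over these 4 and 0.91 over the 20. At MXI1 the sum was 12.01 FPKM in normoxia and 50.01 in hypoxia. NM_130439, the most upstream of the 3 starts shown above, had 0.635 FPKM in normoxia and 11.2 in hypoxia, and its share was 5.28% and 22.4%. NM_005962, the most downstream start, had 4.84 and 9.51 FPKM, so that its share was 40.3% and 19.0% although its FPKM was higher. NM_001008541, which has the motif before its first exon, had 6.54 and 29.3 FPKM and remained the leading transcript with 54.4% and 58.6%. All 3 transcripts were thus higher in hypoxia, by 3.94, 0.96 and 2.15 on the log2 scale in this order.

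NDRG1, a stress-induced gene and a standard marker of hypoxia, had the largest change in abundance of any member and one of the smallest shifts. The sum of its 3 transcripts was 6.19 FPKM in normoxia against 300.0 in hypoxia, which is 5.58 on the log2 scale. NM_006096 had 4.35 and 180.4 FPKM, and NM_001258432 had 1.81 and 118.9. The share of NM_001258432 was 29.2% and 39.6%, which is 10.4 points.

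Of 14 eligible 1-gene loci in a list of glucose metabolism genes, 3 were members (21.4%, beside 9.89%), of which ALDOA and PDK3 are also in the hypoxia list. UGP2, the enzyme that makes UDP-glucose for glycogen synthesis, had the largest shift of any member with a mean sum above 100 FPKM. Its locus (chr2:64068098-64118696, hg19) lists 2 transcripts. NM_006759 had 44.4 FPKM in normoxia and 105 in hypoxia, and NM_001001521 had 65.9 and 46.1. The share of NM_006759 was 40.2% and 69.5%, so the leading transcript differed between the conditions. PDK3, a kinase that inhibits pyruvate dehydrogenase, went from unequal to equal transcripts. NM_005391 had 6.25 and 7.86 FPKM and NM_001142386 had 2.96 and 7.79, so that the share of the second was 32.1% and 49.8%. ALDOA, the glycolytic aldolase of muscle and most other tissues, had 2 main transcripts at nearly the same level in normoxia. NM_184043 had 24.5 FPKM in normoxia and 54.9 in hypoxia and NM_184041 had 24.6 and 32.5, and both were higher in hypoxia.

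PTK2B, CHN2, HRH1, IL4R and IFNLR1 were among the 15 members with the largest shifts, each with a sum below 6 FPKM in both conditions. PTK2B, a tyrosine kinase related to focal adhesion kinase, had a nearly level sum of 3.11 and 3.04 FPKM. NM_173176 had 0.417 FPKM in normoxia and 1.76 in hypoxia, and NM_004103 had 1.25 and 0.167. Their shares were 13.4% and 58.0% for the first and 40.2% and 5.48% for the second. CHN2, a GTPase-activating protein for Rac, had 1 transcript that stood at 2.58 and 2.20 FPKM (NM_004067) and another at 0.241 and 1.86 (NM_001039936). HRH1, the histamine H1 receptor, had a sum of 4.58 and 4.80 FPKM. The estimate for NM_001098212 was 0.00153 FPKM in normoxia against 1.15 in hypoxia, so this difference rests on a value close to 0. IL4R, a subunit of the receptors for interleukins 4 and 13, had NM_001257407 at 2.31 and 4.09 FPKM and NM_001257406 at 0.918 and 0.0128. IFNLR1, a subunit of the interferon lambda receptor, had NM_170743 at 1.63 and 2.53 FPKM and NM_173065 at 0.760 and 0.350. These 5 genes had a nearly level sum, within 1.2-fold, except CHN2, whose sum was 2.82 and 4.07.

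TNFAIP8, a regulator of apoptosis, had NM_001077654 at 9.12 FPKM in normoxia and 32.4 in hypoxia and NM_014350 at 7.99 and 4.12. The share of the first was 50.5% and 84.4%, and the sum was 18.0 and 38.4 FPKM. SESN1, a sestrin that restrains mTORC1 signalling, had 3 transcripts of which 2 were higher. NM_001199933 had 2.22 and 5.9999 FPKM, NM_001199934 had 0.250 and 1.39, and NM_014454 had 5.61 and 4.64. The leading transcript was NM_014454 in normoxia and NM_001199933 in hypoxia. IFI27, an interferon-induced gene, lists 8 transcripts, of which 5 did not pair with a symbol in the annotation used here. NM_001130080 had 21.4 FPKM in normoxia and 3.24 in hypoxia, and NM_005532, one of the unpaired, had 20.2 and 35.8.

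**Figure D4:**
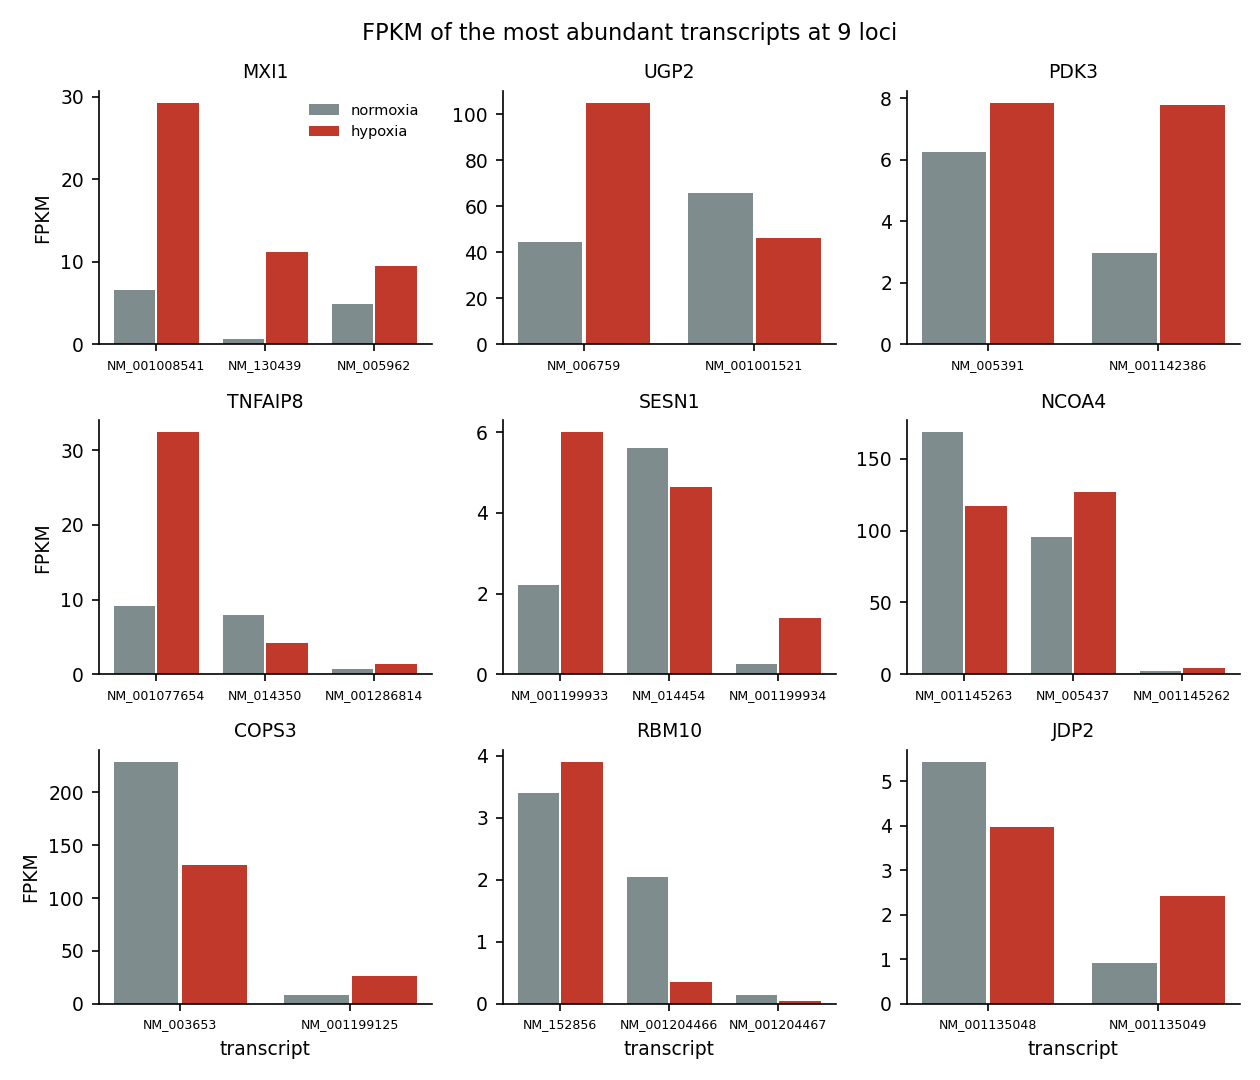
FPKM in normoxia (grey) and hypoxia (red) of the transcripts at 9 members of 1 gene, up to the 3 most abundant at each, on a linear axis from 0 with its own scale in each panel. Each bar is 1 value over the 4 replicates, so no error bar can be drawn. At UGP2 and NCOA4 the order of the 2 main transcripts is reversed between the conditions, at MXI1 all 3 are higher in hypoxia, and at COPS3 the minor transcript is higher while the major one is lower.

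Chromatin and transcription factors were the largest group, with 28 members of 184 eligible 1-gene loci (15.2%, beside 9.89% of all 1-gene loci). Their eligible loci had a median mean sum of 9.84 FPKM, below the 16.3 of all eligible 1-gene loci, and members were more frequent at low FPKM throughout. Of the 28, 3 had a sum at least 1.5-fold higher and none had one lower, beside 8.1% and 8.59% of all eligible 1-gene loci. MXD1, like MXI1 a MAX partner that opposes MYC, had a level NM_001202513 with 1.44 and 1.32 FPKM and an NM_002357 with 1.86 in normoxia and 6.37 in hypoxia. JDP2, a repressor of AP-1, had a sum of 6.35 FPKM in normoxia and 6.39 in hypoxia. NM_001135049 had 0.919 and 2.42 FPKM and NM_001135048 had 5.43 and 3.97, so that the share of the first was 14.5% and 37.9%. CTBP2, a transcriptional corepressor, had NM_001083914 at 8.68 and 10.0 FPKM and NM_001329 at 9.80 and 4.65, and the leader differed. NFAT5, the transcription factor of the osmotic stress response, had a different leader too, with NM_006599 at 2.79 and 5.46 FPKM. MEN1, the menin tumour suppressor, was not in the list and had NM_130801 at 0.709 and 2.41 FPKM beside NM_130799 at 3.62 and 3.13.

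NCOA4 and HMGB2 were the most abundant named members of this group. NCOA4, the receptor that delivers ferritin to autophagy and was first known as a coactivator, had a sum of 267 FPKM in normoxia and 248.6 in hypoxia. NM_001145263 had 168 and 117 FPKM and NM_005437 had 95.8 and 127, and the leader differed although neither transcript passed 1.5-fold. HMGB2, a chromatin protein of dividing cells, had NM_001130689 at 185 and 172 FPKM and NM_001130688 at 61.4 and 32.3. SMARCA1, an ISWI remodelling ATPase, had NM_001282874 at 2.89 and 1.73 FPKM and NM_001282875 at 10.1 and 14.1. ZNF248, a zinc finger protein, had NM_021045 at 0.414 and 1.44 FPKM and NM_001267607 at 0.976 and 0.276.

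RNA-binding and splicing proteins gave 9 members of 74 eligible 1-gene loci (12.2%, beside 9.89%). None of the 9 had a sum that differed by 1.5-fold, beside 8.1% higher and 8.59% lower of all eligible 1-gene loci. RBM10, a splicing regulator, showed the loss of a minor transcript. NM_001204466 had 2.04 FPKM in normoxia and 0.347 in hypoxia and the leader NM_152856 had 3.39 and 3.90, with a share of 59.6% and 90.8%. DDX54, an RNA helicase, had NM_024072 at 2.68 and 1.35 FPKM and NM_001111322 at 1.33 and 1.88, and the leader differed. At higher abundance, SNRPB, a core protein of the spliceosomal snRNPs, had its minor transcript NM_198216 at 27.9 and 4.28 FPKM and its major NM_003091 at 149 and 118. LUC7L3, a protein related to a yeast U1 snRNP component, had NM_016424 at 49.5 and 83.0 FPKM and NM_006107 at 27.1 and 16.7. SNRPB and LUC7L3 were chosen for mention after their values were seen, for their FPKM above 50. In the translation list 2 of 40 eligible 1-gene loci were members (5%), EIF4ENIF1 and ETF1. ETF1, the release factor that ends translation, had NM_004730 at 156 and 72.7 FPKM beside a level NM_001282185 at 28.7 and 28.0. Like SNRPB and LUC7L3, ETF1 was not among the loci named by rule.

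In the other lists, the share of members lay on either side of the 9.89% of all 1-gene loci. It was 14 of 105 for the cell cycle and DNA (13.3%), 12 of 100 for membrane traffic (12%), 10 of 94 for the cytoskeleton and adhesion (10.6%), 5 of 60 for mitochondria (8.33%), 9 of 120 for ubiquitin and proteolysis (7.5%) and 5 of 119 for kinase and phosphatase signalling (4.20%). The lists were matched by symbol, so they hold genes of other roles and miss some of their own. DNMT3B, a DNA methyltransferase, was counted under membrane traffic, and DSTYK, a kinase, under the cytoskeleton. PTK2B was in no list, and the kinases PDK3, LIMK2 and CDK16 were counted in other lists than that of kinases. TROAP, a mitotic spindle protein, had the lowest ratio of hypoxia to normoxia in the sum of any member. The sum of TROAP was 15.6 in normoxia and 5.804 in hypoxia. Its NM_001278324 had 7.51 and 1.60 FPKM and its NM_001100620 had 6.23 and 2.98. CDK5RAP3, which takes part in protein UFMylation and entered the cell cycle list by its symbol, had NM_001278216 at 0.732 and 3.18 FPKM beside NM_176096 at 9.25 and 7.72. The exocyst subunit EXOC1 had NM_178237 at 11.9 and 17.7 FPKM and NM_018261 at 8.27 and 5.42. MON2, a regulator of Golgi and endosome traffic, had NM_001278470 at 2.62 and 5.00 FPKM and NM_015026 at 3.64 and 2.88, and the leader differed. PLEKHA8, a lipid transfer protein of the Golgi, had NM_001197026 at 7.04 and 10.5 FPKM and NM_001197027 at 2.29 and 1.33.

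TUBB3, a beta tubulin best known from neurons, had NM_001197181 at 1.59 and 3.01 FPKM and NM_006086 at 2.57 and 1.73, with another leader. Of the RING finger proteins, RNF14 had NM_001201365 at 5.12 and 11.2 FPKM and NM_183401 at 21.3 and 13.3. RNF24 had both moved transcripts higher, NM_001134337 at 0.628 and 3.72 FPKM and NM_001134338 at 3.19 and 5.43. TNPO2, a nuclear import receptor, had NM_001136195 at 3.33 and 1.23 FPKM and NM_013433 at 0.759 and 1.36. SLC25A25, a mitochondrial carrier of ATP-Mg and phosphate, had NM_052901 at 4.65 and 1.70 FPKM beside a level NM_001006641 at 0.685 and 0.669. At COPS3, a subunit of the COP9 signalosome, NM_003653 had 229 and 132 FPKM and NM_001199125 had 7.89 and 26.0. SAMD4A, an RNA-binding translational repressor, had NM_015589 at 3.70 and 12.2 FPKM and NM_001161576 at 3.03 and 6.18. RPUSD2, a pseudouridine synthase family protein, had NM_152260 at 3.15 and 1.13 FPKM and NM_001286407 at 2.56 and 1.59.

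A list of genes that the study took up for transcript-level changes had 12 eligible 1-gene loci. Of these, 10 were members (83.3%, beside 9.89% of all 1-gene loci). They were MXI1, NDRG1, JDP2, CTBP2, NFAT5, MON2, EXOC1, PLEKHA8, ZNF248 and SMARCA1. ANKZF1, also in the list, lies in a locus of several genes and is not in this count. The study chose these genes on the same samples, so the count is not independent evidence of a shift. For MXI1 and NDRG1 the study also measured isoforms by quantitative PCR, and those values were not used here. MXI1 had the largest abundance change among these 10 after NDRG1.

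The loci of several genes have to be read gene by gene. At the locus of GCDH and SYCE2, the transcript of SYCE2, a protein of the synaptonemal complex, had 0.865 and 2.03 FPKM, and NM_000159 of GCDH, glutaryl-CoA dehydrogenase, had 2.57 and 1.61. At CRYBG3 and RIOX2, NM_153605 of CRYBG3 had 19.9 and 35.4 FPKM and NM_153182 of RIOX2, a histone and ribosome hydroxylase that uses oxygen, had 20.04 and 10.7.

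At RBBP4 and SYNC, both transcripts that moved most were those of the histone-binding gene RBBP4, with NM_005610 at 32.1 and 21.0 FPKM and NM_001135256 at 1.59 and 10.1. At ATG7 and VGLL4, the largest gain and the largest loss lay in different genes. NM_001128219 of VGLL4, a cofactor of TEAD transcription factors, had 4.24 and 8.20 FPKM and NM_001128220 of the same gene had 2.38 and 1.96, while NM_006395 of the autophagy gene ATG7 had 7.49 and 6.84. Of the genes in these 92 loci, 67 had 2 or more transcripts and the FPKM minimum by themselves, and 15 passed 10 points within the gene. With the gene symbol as the unit over the whole table, 396 of 4006 did. The 92 loci were picked by the same share rule, so nothing is read from this count.

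Elsewhere in this class, neighbours differed. SLC5A3, a myo-inositol transporter, and MRPS6, a mitochondrial ribosomal protein, had 20.1 and 90.9 FPKM and 42.2 and 70.6, both higher in hypoxia. At the locus of AIMP2, ANKRD61 and EIF2AK1, AIMP2, a scaffold of the aminoacyl-tRNA synthetase complex, had 80.2 and 31.6 FPKM, and NM_014413 of the eIF2 kinase EIF2AK1 had 20.01 and 20.7. ANKZF1, a factor of ribosome-associated quality control, had NM_001042410 at 7.81 and 28.2 FPKM next to NM_024506 of GLB1L at 1.11 and 0.646. ANG and RNASE4, secreted ribonucleases, were listed with 2 transcripts each, and all 4 were higher in hypoxia, with a sum of 2.13 and 7.36 FPKM. The TPI1 transcript NM_001258026, from the gene of triosephosphate isomerase, had 1.65 and 5.12 FPKM next to SPSB2 at 0.501 and 0.432. NDUFAF3, an assembly factor of respiratory complex I, had 13.9 and 7.17 FPKM, and WDR6, listed with it, had 6.21 and 8.56.

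At further loci the gene with the largest loss of share was lower in hypoxia by at least 1.5-fold. NME1 and ZYX, described below, are among these genes, and 3 other loci follow here. POLR1G, a subunit of RNA polymerase I, had 6.58 FPKM in normoxia and 2.05 in hypoxia beside NM_001983 of the repair gene ERCC1 at 3.97 and 3.34. NIP7, a ribosome biogenesis factor, had NM_016101 at 46.0 and 16.3 FPKM beside PDF at 24.4 and 13.9 and COG8 at 7.17 and 5.85. At the locus of ALG1 and EEF2KMT, the EEF2KMT transcript NM_201598, of a methyltransferase of elongation factor 2, had 2.96 and 1.02 FPKM.

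The highest sum of any member was that of NME1 and NME2, nucleoside diphosphate kinases, with 1066 FPKM in normoxia and 713 in hypoxia. NM_000269 of NME1 had 329 and 141 FPKM and NM_001018139 of NME2 had 712 and 559. These genes are related in sequence and adjoin each other, and how fragments were divided between them was not tested. At DCTN6, LEPROTL1 and SARAF the sum was 205 and 196 FPKM, with NM_016127 of SARAF at 103 and 118. The last of the named loci were at low FPKM. RHOF and TMEM120B had 0.949 and 1.80 FPKM and 1.34 and 0.867, and C1GALT1C1L and PLEKHH2 had 2.46 and 1.92 and 0.968 and 2.21. EPHA1 had 3.09 and 3.18 FPKM beside ZYX at 1.65 and 0.583, and in the string of 5 genes that includes NDRG2 the largest gain was that of RNASE7, at 0.411 and 1.07.

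Annotated start sites are a feature that the rule did not use. GENCODE annotates coding transcripts with 2 or more groups of start sites, at least 500 bases apart, for 72.7% of the 282 members of 1 gene and 66.2% of 2556 other eligible 1-gene loci with a match. At an equal number of listed transcripts the shares were 67.6% and 62.5% with 2, 74.7% and 70.1% with 3, 73.5% and 74.5% with 4, and 81.0% and 72.2% with 5 or more. The difference was thus small and not in the same direction in every class. Of the members, 2 (DDR1 and NFKBIL1) lie on alternate haplotype sequences of chromosome 6, where fragments can also match the primary chromosome.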

How the data were processed

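RNA-seq of SQ20B cells in normoxia and hypoxia, with 4 replicates each grouped by source name, was analysed from 1 table. Per the study's methods, the authors prepared poly(A)-selected stranded sequencing samples, aligned reads with STAR 2.3.0.1 to hg19 and compared the conditions with the Cufflinks suite 2.1.1 and RefSeq annotation. The deposited FPKM values are 1 per transcript and condition over the replicates. Cufflinks divides fragments that fit several transcripts by a model, so shares of similar transcripts carry its error. The table's fold change, test statistic, p-value and q-value columns hold the authors' comparison and were not used. Read counts and depth per sample were not analysed here.

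Shares were computed within locus strings. Symbols came from RefSeq (GRCh38.p14), which paired 1266 of 1287 member rows. Coordinates are hg19, counted from 1. Members and lists were chosen with earlier results of these data known. Named loci were the 15 largest share differences, the 10 largest with another leader, the 8 largest with a sum within 1.2-fold, the 5 largest rises and 5 largest falls of the sum, the 5 highest sums, the 3 loci on either side of the limit, members of the hypoxia and study lists, and the 2 largest in every other list. The values of 2 of these loci are not reported here. Python 3.11.15 with pandas 2.3.3 and pysam 0.24.0 was used. The share computation was tested on simulated data.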

Additional observations from a re-analysis of the deposited data

How the results depend on the processing

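No paired analysis was possible because the columns carry no single replicates, and leaving out 1 replicate was not possible for the same reason. The count of 374 members was 129 at a limit of 15 points and 54 at 20 points. It was 237 with a summed FPKM of at least 5 in both conditions, 157 with at least 10 and 647 with no minimum, the last holding all 374. Within 1.5 times of it were 345 members with 0.1 FPKM added to every transcript (341 of them shared), 353 without rows below 0.5 FPKM in both conditions (350 shared), 396 with the gene symbol as the unit (277 of the 282 members of 1 gene shared), 494 with NR rows kept (374 shared) and 272 where all rows paired with 1 symbol. In settings added after the data were seen, 290 had the gaining and losing transcript in the same gene, 372 were left without alternate haplotypes, and 230 had at least 1 FPKM in both conditions for both moved transcripts.

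The 100 members with another leading transcript became 48 at a sum of at least 10 FPKM and 1 where the leader had to hold 60% of the sum in each condition. With the columns scaled to equal sums, 78 members had a higher sum and 15 a lower one, in place of 41 and 33, and the median log2 change was 0.18 over all members and 0.23 over members of 1 gene, in place of -0.04 and 0.01. Centred on the median of all eligible loci these medians were 0.054 and 0.098. Every gaining share of the named loci kept its direction in the 2 settings in which it was computed, but its size moved by 2 points or more at some. This held for 7 loci with 0.1 FPKM added (PTK2B 39.4 points in place of 44.6). Without the low rows it held for 2, IFNLR1 (19.6 in place of 27.1) and TNPO2 (34.0 in place of 31.2). With 0.1 FPKM added, ZNF2 (9.23), RBMS3 (8.9) and MECOM (9.84) fell below 10 points, and without the low rows DBNL rose to 11.5. The planned counts by coding length, transcript start and transcript end were not run, since the transcript structures they need were not used here.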
